A study of Mus musculus with 6 samples.

Results

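The early meiotic prophase spermatocytes were 989 of the 48939 cell barcodes of a single-cell RNA sequencing series of mouse testis. Each barcode labels the contents of 1 droplet, ideally a single cell, and its RNA is counted as unique molecular identifiers (UMIs), so that copies of a captured molecule made by PCR count once. Members were selected on measured UMIs in all libraries. A barcode needed at least 3000 UMIs, under 2% of them from the spermatid genes Prm1, Prm2, Tnp1 and Tnp2, at least 4 UMIs from Meiob, Dmc1 and Prss50 together, and at most 2 UMIs from Piwil1. Of the 10128 barcodes that met the first 2 conditions, 253 had enough Meiob, Dmc1 and Prss50 but too much Piwil1.

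The whole testes came from 8-week-old male C57BL/6N mice (C57BL/6 in the labels) kept for 2 weeks on purified diets, either high in fat (HFD) or low in fat (LFD). There were 3 libraries of each diet from 3 mice per diet, all wildtype, and no other treatment or allele separated the groups. The HFD libraries held 197, 173 and 181 members and the LFD libraries 187, 171 and 80, in the order of replicates 1 to 3. The file names give every library the opposite diet to its title, and the number of cells that the study lists for each library matches the barcodes under the file names in every library. For this reason the groups are called libraries labelled HFD and LFD, and each diet difference given here changes sign if the file names are right. All diet comparisons ask whether 2 weeks of either diet left a different RNA content at meiotic entry.

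In males, meiosis begins when retinoic acid switches on Stra8 in differentiated spermatogonia. STRA8 acts with its partner MEIOSIN (Gm4969 in these files) on the promoters of meiotic genes, and the cell passes through a last DNA replication into leptotene and zygotene. There the chromosomes take up meiotic cohesin and a protein axis, SPO11 cuts the DNA at sites marked by PRDM9, and DMC1, with the help of MEIOB, uses the cut ends to search for the homologous chromosome. The synaptonemal complex then zips the homologues, and in pachytene the unpaired X and Y are silenced.

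Promoter sequence is shown for the genes that set or check the gate, since these are the genes on which the cell identity rests. The sequences are the 250 bases before the annotated start from RefSeq (GRCm38.p6), read 5′ to 3′ on the strand of the gene. Meiob is not shown. Capitals mark exact matches, on either strand, to TCCCGC, the core recognised by E2F factors, and to CNCCTCAG, the letters described for STRA8 and MEIOSIN. Neither string contains the other. The stretches are chr15:79605110-79605359 on the minus strand for Dmc1, chr9:110857714-110857963 on the plus strand for Prss50, chr3:102936101-102936350 on the minus strand for Sycp1, chr10:88459337-88459586 on the plus strand for Sycp3, and chr15:85131958-85132207 on the minus strand for Smc1b.
Dmc1: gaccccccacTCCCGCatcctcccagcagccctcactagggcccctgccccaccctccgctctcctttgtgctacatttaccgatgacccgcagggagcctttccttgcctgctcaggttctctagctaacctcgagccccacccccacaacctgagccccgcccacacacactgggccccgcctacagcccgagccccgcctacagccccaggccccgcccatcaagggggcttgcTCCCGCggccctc
Prss50: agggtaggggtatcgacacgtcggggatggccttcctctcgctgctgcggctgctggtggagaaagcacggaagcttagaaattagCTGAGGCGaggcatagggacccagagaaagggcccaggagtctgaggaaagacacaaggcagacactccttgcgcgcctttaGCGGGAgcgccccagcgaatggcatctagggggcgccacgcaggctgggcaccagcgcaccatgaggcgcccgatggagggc
Sycp1: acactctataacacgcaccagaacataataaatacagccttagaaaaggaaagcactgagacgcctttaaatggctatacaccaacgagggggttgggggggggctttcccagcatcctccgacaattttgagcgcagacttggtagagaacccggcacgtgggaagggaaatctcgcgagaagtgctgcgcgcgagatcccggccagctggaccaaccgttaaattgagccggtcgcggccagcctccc
Sycp3: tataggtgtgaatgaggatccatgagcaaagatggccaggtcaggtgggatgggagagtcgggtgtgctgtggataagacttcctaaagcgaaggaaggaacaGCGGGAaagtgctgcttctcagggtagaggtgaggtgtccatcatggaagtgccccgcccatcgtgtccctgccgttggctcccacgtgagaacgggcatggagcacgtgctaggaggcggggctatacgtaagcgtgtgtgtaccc
Smc1b: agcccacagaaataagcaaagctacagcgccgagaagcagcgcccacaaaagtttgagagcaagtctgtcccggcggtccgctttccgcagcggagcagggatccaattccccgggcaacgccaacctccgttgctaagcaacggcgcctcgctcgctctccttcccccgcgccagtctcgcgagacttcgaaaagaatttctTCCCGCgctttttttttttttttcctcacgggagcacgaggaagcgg
Dmc1 held the E2F core 240 and 13 bases before its start, and Smc1b held it 47 bases before. Prss50 held the E2F core 82 bases and the STRA8 and MEIOSIN letters 164 bases before its start, both on the opposite strand. Sycp3 held the E2F core on the opposite strand 147 bases before its start, and the Sycp1 stretch held neither string, although both lie just past its start, the E2F core 2 bases and the STRA8 and MEIOSIN letters, on the opposite strand, 32 bases after it. Over windows that also include the first 50 bases of the transcript, and so count both for Sycp1, TCCCGC was present for 38 of the 63 matched genes of the meiotic lists and Prss50 (60.3%), against 39.3% of the 8437 matched genes tested in the members and 22.0% of all 27025 genes in the table. CNCCTCAG was present for 16 of the 63 (25.4%), against 11.7% and 9.12%. These shares describe letters and are no measure of binding.

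The label was checked against genes outside the gate. Levels are given as CPM (counts of UMIs per 1e6 UMIs) of the summed members of a library, and each is compared between cells for 1 gene at a time. A pair of other sets of barcodes served for comparison. A spermatogonia gate (410 barcodes with at least 3 UMIs of the spermatogonial genes Uchl1, Crabp1 and Dmrt1, at least 1 of the germ cell genes Dazl and Ddx4, at most 2 of Piwil1 and at most 1 of Meiob, Dmc1 and Prss50) stood before the members, and a Piwil1 gate (2447 barcodes with at least 3 UMIs of Piwil1, a pachytene gene) stood after them. Because all 3 gates were cut from the same counts, differences between them are descriptions without a test. Sycp1, the central filament of the synaptonemal complex, was at 1569, 2072 and 1992 CPM in the members of the libraries labelled HFD and at 1735, 1519 and 1243 CPM in those labelled LFD. Sycp3, its axial element, was at 1680, 2183 and 1800 CPM and at 1760, 1677 and 934 CPM. Smc1b, the meiotic cohesin subunit, was at 1044, 1388 and 1399 CPM and at 1096, 1024 and 1015 CPM. All 3 markers were higher in the members than in either other gate in 6 of 6 libraries, and LFD replicate 3 had the lowest level of each. Their means in the spermatogonia gate were 336 ± 75.6, 225 ± 41.0 and 452 ± 73.4 CPM (SD, n = 6), and in the Piwil1 gate 525 ± 112, 548 ± 104 and 417 ± 58.6 CPM.

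**Figure D1:**
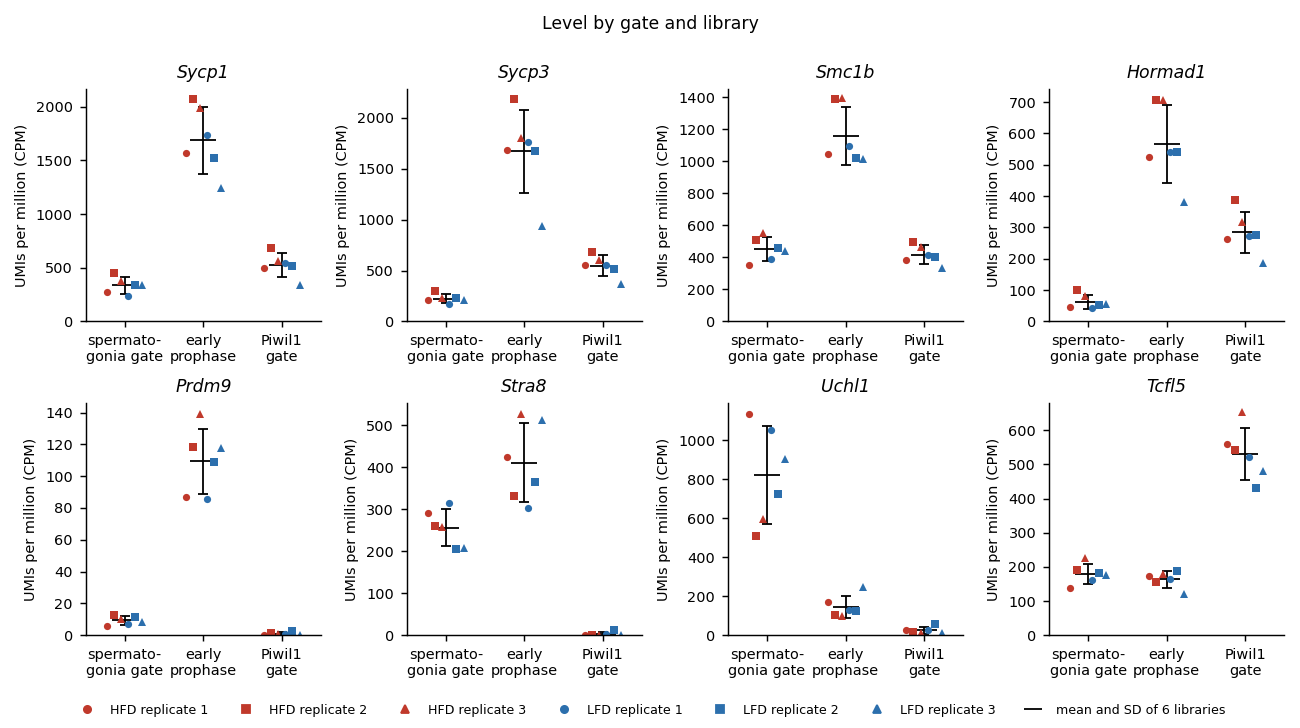
Level of 8 genes (y axis, CPM) in the spermatogonia gate, the early prophase members and the Piwil1 gate (x axis), with 1 point per library and the mean and SD of 6 libraries. Sycp1, Sycp3, Smc1b, Hormad1 and Prdm9 were highest in the members in every library, and pachytene Tcfl5 was highest in the Piwil1 gate. Uchl1 is a gene of the spermatogonia gate and is high there by construction.

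The gate genes themselves were high by construction. Prss50, a serine protease gene of the testis, had a UMI in 977 members, Dmc1 in 716 and Meiob in 524, and 386 members had all 3, so Prss50 carried most of the selection. The 138 members with exactly 4 UMIs of the 3 genes had 1303 CPM of Sycp1 and 1133 CPM of Sycp3, and the 165 barcodes just outside, with 3 UMIs, had 973 and 766 CPM. At the Piwil1 limit, the 81 members with 2 UMIs had 1754 CPM of Sycp1 and the 36 barcodes with 3 UMIs had 1870. Depth per member ran from 3071 to 141645 UMIs with a median of 7720, and 36 members held over 20000 UMIs. The libraries held 672728 to 1963596 member UMIs, the fewest in LFD replicate 3. No member barcode was shared between libraries.

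Markers of Leydig cells, macrophages and blood cells were low, those of Sertoli cells were higher, and spermatid transcripts were not low. The 6 Leydig cell markers summed to 4.44 to 11.9 CPM per library, nearly all from Star, with Cyp11a1, Hsd3b1 and Insl3 at 0 UMIs in every library (3 UMIs over all members would be 0.321 CPM). The 6 macrophage markers summed to 0.584 to 4.46 CPM and the 5 red cell markers to at most 1.84 CPM, with Lyz2, Csf1r and Hbb-bt at 0 UMIs. The 8 Sertoli cell markers summed to 155 to 503 CPM, highest in HFD replicate 3 and mostly Ctsl, a protease also found outside Sertoli cells. Clu and Defb19 were at 69.8 and 71.1 CPM in HFD replicate 3 and at most at 30.8 and 39.8 CPM in the other libraries. At least 10 UMIs of Clu, Defb19, Cst12 and Amhr2 together were held by 3 members of LFD replicate 1 and 1 member of HFD replicate 3. The smooth muscle genes Acta2 and Myh11 were at 89.2 and 16.4 CPM in LFD replicate 3 and at most at 0.634 CPM elsewhere, and 1 member of that library held at least 10 UMIs of the pair. The 10 spermatid markers summed to 4745 to 9947 CPM per library. Of these, Prm1 was at 1696 to 3765 CPM in the members although the gate limits it, and was present in the other gates too (1972 ± 601 CPM in spermatogonia and 1092 ± 486 CPM in the Piwil1 gate). The part of these transcripts in the results that follow was not tested.

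Of the 77 genes in the 9 meiotic lists (initiation, synaptonemal complex, meiotic cohesin, HORMA proteins, break formation, strand exchange, crossovers, telomere attachment and silencing, with the gate genes left out), 56 were higher in the members than in the spermatogonia gate in all 6 libraries and 6 were lower in all 6. For the 9225 genes with at least 10 CPM in the members, these shares were 28.0% and 17.1%. Against the Piwil1 gate, 61 of the 77 were higher and 11 lower in all 6 libraries, where all genes gave 54.8% and 26.0%. So 45 of the 77 peaked here among the 3 gates in every library, against 20.1% of all genes.

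Of the 9 synaptonemal complex genes, 8 were above spermatogonia and 8 above the Piwil1 gate in all libraries. Hormad1, an axis protein that supports break formation, was at 567 ± 124 CPM (SD, n = 6), 8.94 times its level in spermatogonia and 2.00 times that in the Piwil1 gate. Sycp2, the partner of SYCP3 in the axis, stood at 764 ± 228 CPM against 73.4 ± 18.9 and 424 ± 104. Of the central element genes, Syce2 (485 ± 49.0 CPM), Tex12 (289 ± 40.1 CPM) and Six6os1 (4930447C04Rik, 531 ± 92.9 CPM) were higher in the members than in both other gates in all libraries. Syce1 was not of that kind: it was at 340 ± 21.8 CPM in the members and at 655 ± 50.3 CPM in the Piwil1 gate, higher there in 6 of 6 libraries. Fkbp6, also on the list, was lower in the members than in spermatogonia in 6 of 6 libraries (336 ± 69.7 against 407 ± 88.8 CPM).

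In each pair of a meiotic and a general cohesin subunit, the mean share of the meiotic one was higher in the members than in spermatogonia. Rad21l, a meiotic kleisin that closes the cohesin ring, was at 47.1 ± 11.7 CPM in the members, 3.28 ± 2.42 in spermatogonia and 0.30 ± 0.301 in the Piwil1 gate. Rad21, the kleisin of mitotic cells, ran the other way on leaving the spermatogonia, from 152 ± 13.2 to 46.6 ± 7.17 CPM, and was lower in 6 of 6 libraries. Rad21l thus made up a mean of 49.8% of the UMIs of the pair in the members (39.7% to 59.1% over libraries), 2.01% in spermatogonia and 2.30% in the Piwil1 gate. Rec8, another meiotic kleisin, did not fall back: it made up 40.1% of its pair with Rad21 in the members, 11.8% in spermatogonia and 41.8% in the Piwil1 gate. In spermatogonia Smc1b already made up 86.48% of its pair with Smc1a and Stag3 71.18% of its pair with Stag2. In the members these shares were 95.66% and 87.55%. Stag3, the meiotic STAG subunit, was at 258 ± 39.2 CPM against 97.4 ± 24.5 in spermatogonia. Smc3, shared by mitotic and meiotic rings, was at 575 ± 55.8 CPM against 351 ± 44.0 in spermatogonia and 39.5 ± 17.0 in the Piwil1 gate.

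Of the 9 genes for making the breaks, 7 were above spermatogonia and 8 above the Piwil1 gate in all libraries. Prdm9, the histone methyltransferase that marks the break sites, was at 87.1, 118 and 139 CPM in the libraries labelled HFD and 85.7, 109 and 117 CPM in those labelled LFD. The mean of 109 ± 20.4 CPM compares with 9.36 ± 2.77 in spermatogonia and 1.05 ± 0.911 in the Piwil1 gate. Top6bl (Gm960), the partner of SPO11, was at 34.4 ± 7.79 CPM against 7.28 ± 3.29 and 1.58 ± 0.631. Spo11 itself did not peak here: it was at 59.3 ± 17.9 CPM in the members and at 96.9 ± 11.3 CPM in the Piwil1 gate, higher there in 6 of 6 libraries. For strand exchange, 9 of the 18 genes outside the gate were above spermatogonia in all libraries and 3 were below. Against the Piwil1 gate, 12 of them were above and 3 below in all libraries. Rad51ap2 was at 195 ± 68.7 CPM against 2.77 ± 1.14 in spermatogonia and 7.43 ± 2.07 in the Piwil1 gate. Of the crossover genes, Hfm1 (164 ± 53.3 CPM) and Msh5 (61.5 ± 11.9 CPM) were higher in the members than in either gate in all libraries, while Cntd1, Prr19 and Mlh3 were higher in the Piwil1 gate in all libraries. For attachment of telomeres to the nuclear envelope, Terb1 (108 ± 28.4 CPM) was highest in the members, and Spdya (206 ± 34.4 CPM) and Kash5 (Ccdc155, 44.7 ± 11.1 CPM) were at 324 ± 47.1 and 98.5 ± 14.7 CPM in the Piwil1 gate.

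The 20 genes with the largest excess over the higher of the 2 other gates, at 20 CPM or more in every library, held the 3 gate genes and Rad51ap2, Prdm9, Rad21l and Hist1h2aa. They also held Primpol, a primase that restarts replication, and Ccnb3, a meiotic cyclin at 73.7 ± 27.7 CPM against 5.67 ± 3.69 in spermatogonia and 0.577 ± 0.325 in the Piwil1 gate. Pbx3, a homeodomain factor, was at 168 ± 27.8 CPM against 8.06 ± 2.45 and 4.91 ± 0.747. Both H2-K1 and H2-D1, class I histocompatibility genes, were on the list, H2-K1 at 373 ± 49.7 CPM against 35.8 ± 12.6 and 62.2 ± 6.03 and H2-D1 at 98.4 ± 16.0 CPM against 5.96 ± 2.61 and 2.76 ± 1.53. Reads of these near copies can be split uncertainly between them. Ugt8a and Gal3st1, the enzymes that add galactose and then sulfate in the synthesis of seminolipid, the main glycolipid of male germ cells, were at 92.0 ± 17.6 and 42.8 ± 10.7 CPM against 14.6 ± 3.22 and 2.41 ± 2.08 in spermatogonia. Top2b, a DNA topoisomerase, was at 217 ± 32.1 CPM, 6.30 and 13.8 times the levels of the other gates. The remaining genes of the 20 were Stxbp5l, Sdk1, Gnptg and the X-linked Fmr1nb and Gm364. Ccnb3 is X-linked too.

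Members differed among themselves in Stra8. No Stra8 UMI was found in 464 members, 1 to 4 in 260 and 5 or more in 265, and the median depths of these classes were 8067.5, 7230 and 7487 UMIs. Stra8 was not part of the gate, but the classes were cut on it, so what follows is description. After thinning to 3000 UMIs, 38.6%, 30.6% and 45.9% of the members labelled HFD and 38.5%, 40.4% and 53.8% of those labelled LFD kept a Stra8 UMI. In the Piwil1 gate, which should lack Stra8, the share was at most 2.04% in any library after the same thinning. The median depth per library before thinning was 6294 to 43282 UMIs in the Piwil1 gate and 6896.5 to 9693 UMIs in the members, so the share in the members was far above that background. Without thinning, the share was 49.7% to 61.3% in the members and 0.738% to 8.18% in the Piwil1 gate. Stra8 was not particular to the members. In the spermatogonia gate the thinned share was 26.9%, 22.2% and 31.6% in libraries labelled HFD and 34.1%, 26.0% and 16.4% in those labelled LFD. Each was below the share in the members of the same library.

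The meiotic lists did not move as one between the class with 5 or more Stra8 UMIs and the class with none. Of the initiation genes 5 of 8 were higher with Stra8 in all libraries and none lower, and of the break formation genes 6 of 9 were higher and 1 lower. Among all 9225 genes, 17.7% were higher and 17.0% lower in every library. The synaptonemal complex list split, with 4 of 9 genes higher and 4 lower. Strand exchange outside the gate had 4 of 18 higher and 3 lower, near the shares of all genes. Meiosin (Gm4969) was at 93.6 ± 24.9 CPM with Stra8 and 11.6 ± 3.26 CPM without. Prdm9 was at 194 ± 32.0 and 58.6 ± 25.3 CPM, Rad21l at 88.2 ± 17.3 and 23.7 ± 8.93 CPM, and Mei1, a break formation gene, at 83.5 ± 11.4 and 16.6 ± 11.0 CPM. Tex15, needed for recombination and transposon silencing, was at 1872 ± 335 and 630 ± 239 CPM. All 5 were higher with Stra8 in 6 of 6 libraries. Genes of DNA replication followed the same way: 8 of 13 were higher with Stra8 in every library and none lower, among them Mcm4 (88.5 ± 23.8 against 30.1 ± 12.5 CPM) and Rrm2 (143 ± 20.3 against 34.4 ± 14.2 CPM).

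The histone gene Hist1h2aa, of the 20 leading genes, is given with 2 others chosen after their values were seen. Hist1h2aa, an H2A gene of the testis, was at 1153 ± 263 CPM with 5 or more Stra8 UMIs, 217 ± 56.8 CPM with 1 to 4 and 149 ± 34.4 CPM with none. Hist1h1a, a linker histone gene, was at 1077 ± 300 and 153 ± 102 CPM in the outer classes, and Hist1h2bm at 128 ± 39.5 and 10.8 ± 4.24 CPM. Each was higher with Stra8 in 6 of 6 libraries. Histone genes have many near copies, so the share of each copy is uncertain.

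In the other direction, Meiob, a gate gene whose product protects single strands at breaks, was at 39.2 ± 9.91 CPM with 5 or more Stra8 UMIs and 223 ± 67.7 CPM with none. Its partner Spata22, which is not in the gate, was at 8.14 ± 5.37 and 18.6 ± 4.03 CPM, and Rad51ap2 at 71.1 ± 28.7 and 271 ± 87.0 CPM. Sycp1 was at 1169 ± 129 and 2063 ± 412 CPM and Sycp3 at 1122 ± 104 and 2200 ± 573 CPM. Spo11 was at 21.9 ± 8.55 and 84.0 ± 25.8 CPM, so that within the members Spo11 was high where Prdm9 was low. The cell cycle genes Cdk1 (27.2 ± 8.83 and 156 ± 18.6 CPM) and Cks2 (90.7 ± 34.5 and 681 ± 159 CPM) and the Y-linked Zfy2 (4.96 ± 5.92 and 58.7 ± 18.4 CPM) were also lower with Stra8. Each of these genes was lower with Stra8 in 6 of 6 libraries. Over all 9225 genes, 17.7% were higher and 17.0% lower with Stra8 in every library, and of the 77 meiotic genes 27 were higher and 10 lower. Against Sycp1 and Sycp3, the central element genes Syce2 (581 ± 34.1 and 383 ± 41.9 CPM) and Tex12 (372 ± 53.5 and 251 ± 38.7 CPM), Syce1 (417 ± 54.9 and 293 ± 14.4 CPM) and Fkbp6 (445 ± 57.6 and 287 ± 91.4 CPM) were higher with Stra8 in 6 of 6 libraries. Dmc1, a gate gene, was also higher with Stra8 in 6 of 6 libraries (203 ± 37.3 and 147 ± 29.4 CPM).

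**Figure D2:**
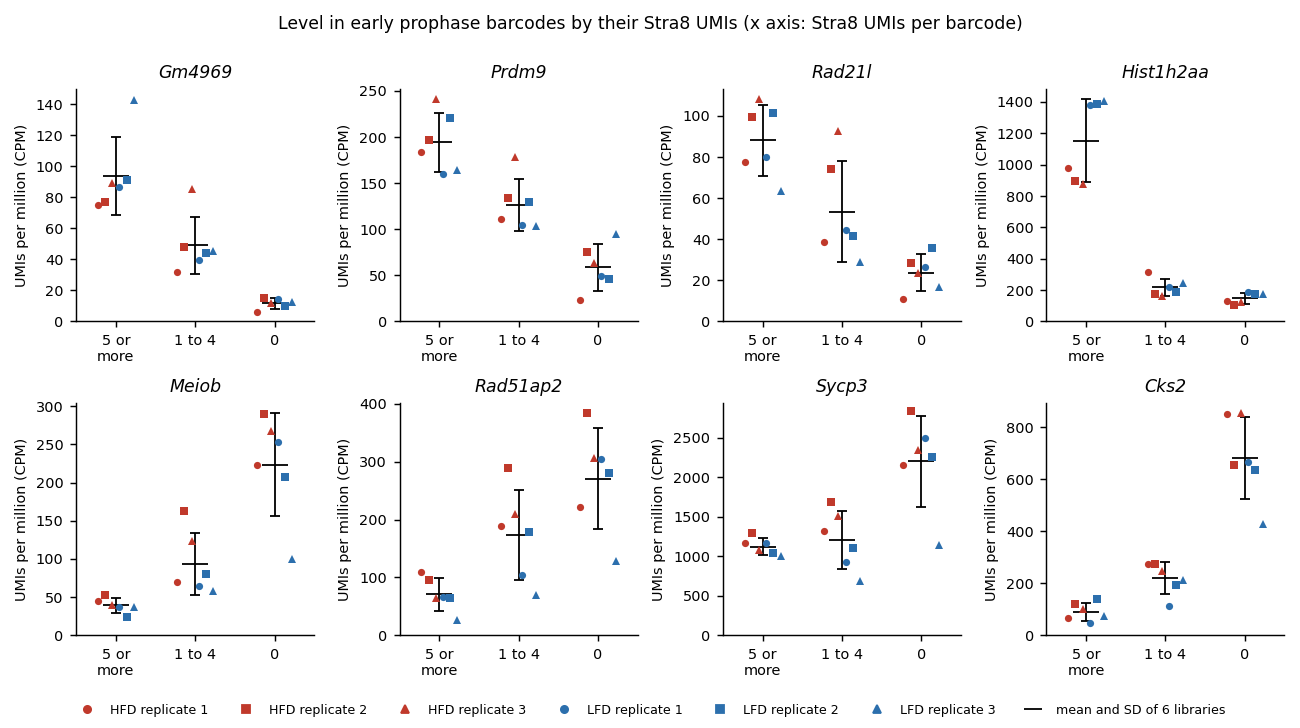
Level (y axis, CPM) of 8 genes in early prophase members with 5 or more, 1 to 4 or 0 Stra8 UMIs (x axis), with 1 point per library and the mean and SD of 6 libraries. Gm4969, Prdm9, Rad21l and Hist1h2aa fell from left to right and Meiob, Rad51ap2, Sycp3 and Cks2 were highest without Stra8, where LFD replicate 3 lay under the other 5 libraries.

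LFD replicate 3 stood apart for some of these genes. Its 31 members without Stra8 had 1136 CPM of Sycp3, where the other libraries had 2148 to 2831, and 129 CPM of Rad51ap2, where they had 223 to 384. It was lowest in the other classes too. With 1 to 4 Stra8 UMIs it had 681 CPM of Sycp3 against 932 to 1680, and with 5 or more 999.6 against 1044 to 1291 CPM of Sycp3 and 26.4 against 64.6 to 109 CPM of Rad51ap2. This library also had the smallest number of members and the largest share with Stra8. Without it, the levels with 5 or more Stra8 UMIs and with none were 1147 ± 95.5 and 2413 ± 266 CPM for Sycp3 (SD, n = 5), 1184 ± 138 and 2178 ± 339 CPM for Sycp1, 80.0 ± 20.7 and 299 ± 58.1 CPM for Rad51ap2 and 39.7 ± 11.0 and 248 ± 33.4 CPM for Meiob.

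Transcripts of the X chromosome were still abundant in the members. X-linked genes gave 1.72%, 2.00% and 1.75% of member UMIs in the libraries labelled HFD and 1.77%, 1.58% and 2.03% in those labelled LFD. The share was 1.54% to 1.79% in the spermatogonia gate and 0.0942% to 0.374% in the Piwil1 gate, so the share of the summed members was above that of the summed Piwil1 gate in every library. Of 288 X-linked genes with at least 10 CPM in the members, 270 (93.8%) were higher in the members than in the Piwil1 gate in all 6 libraries and 0 were lower, and for 8911 autosomal genes the first share was 53.6%. The median log2 difference, Piwil1 gate minus members, was -2.37 for the X-linked and -0.48 for the autosomal genes. Fmr1, the fragile X gene, was at 320 ± 82.2 CPM in the members and 3.84 ± 2.86 CPM in the Piwil1 gate. Scml2, a Polycomb gene of the germ line, was at 304 ± 52.3 and 5.74 ± 4.09 CPM, and Rpl39, a ribosomal protein gene, at 642 ± 111 and 8.93 ± 12.2 CPM. With only the 213 such genes under 3 CPM in spermatid-rich barcodes, 211 were higher in the members.

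Within the members the X share was lower without Stra8. It was 1.96% to 2.28% with 5 or more Stra8 UMIs and 1.28% to 1.88% with none, lower without Stra8 in each of the 6 libraries. LFD replicate 3 again had the highest value without Stra8. Without Stra8, Rpl39 was at 449 ± 142 CPM against 959 ± 168 with 5 or more UMIs, and Taf7l, a germ cell TFIID gene, at 338 ± 67.3 against 763 ± 89.3 CPM. Fmr1 (300 ± 83.9 against 328 ± 51.6 CPM) and Scml2 (301 ± 55.7 against 328 ± 45.5 CPM) differed by less than their spread over libraries. Of the 288 X-linked genes, 30.9% were higher with Stra8 in all libraries and 5.90% lower, where autosomal genes gave 17.3% in each direction.

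**Figure D3:**
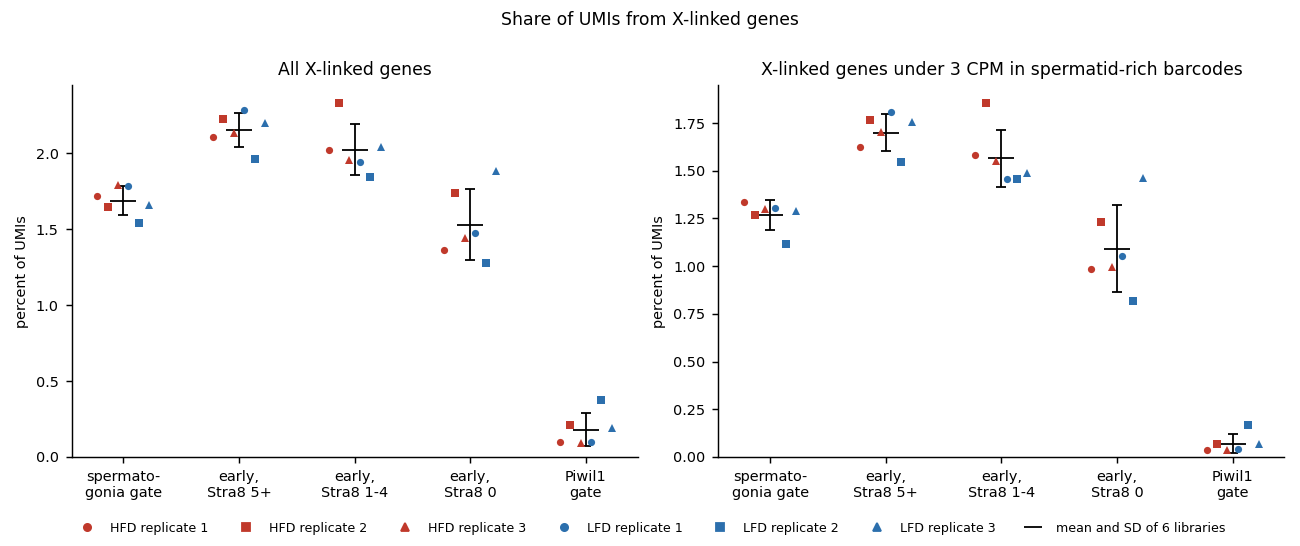
Percent of UMIs from X-linked genes (y axis) in the spermatogonia gate, in early prophase members by Stra8 UMIs and in the Piwil1 gate (x axis), for all X-linked genes at left and those under 3 CPM in spermatid-rich barcodes at right. Points are libraries with the mean and SD of 6. Members without Stra8 sat at 1.28% to 1.88% for all X-linked genes, under the members with 5 or more Stra8 UMIs in every library and above the Piwil1 gate.

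Some X-linked genes have autosomal copies that serve while the X is silent. Rpl10l made up 21.6% of the Rpl10l and Rpl10 pair in the members, 20.7% in spermatogonia and 95.1% in the Piwil1 gate. Cstf2t made up 28.1%, 27.3% and 86.1% of its pair with Cstf2, in the same order. Within the members Rpl10l made up a mean of 12.8% with 5 or more Stra8 UMIs (7.14% to 20% over libraries) and 34.0% with none (12.5% to 45.8%). The pair Pdha2 and Pdha1 was ahead of these, with Pdha2 at 92.1% in the members. Pgk2 made up 78.8% of its pair with Pgk1 in the members, 79.8% in spermatogonia and 98.0% in the Piwil1 gate, and Rbmxl2 93.0%, 95.7% and 99.7% of its pair with Rbmx. Utp14b made up 67.9%, 54.2% and 87.8% of its pair with Utp14a. Within the members its mean ran against that of Rpl10l. It was 77.2% with 5 or more Stra8 UMIs (70.4% to 82.9% over libraries) and 63.4% with none (58.8% to 74.8%). For both Rpl10l and Utp14b the library ranges of these classes overlapped. The part of RNA from later cells in these shares was not tested.

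Genes on either side of the stage were placed as follows. Spermatogonial Sall4 fell to 4.17 ± 1.73 CPM in the members from 77.8 ± 30.8 in the spermatogonia gate, and Kit to 51.1 ± 15.2 from 106 ± 21.3. Of the 12 spermatogonial genes 9 were lower in all libraries, and Dazl, a germ cell RNA-binding protein gene, was the 1 that was higher in all (1469 ± 184 against 897 ± 82.5 CPM). The 12 include Uchl1, Crabp1 and Dmrt1, which set the spermatogonia gate and are raised there by construction. Dazl is used by that gate too. Of the piRNA genes, which guard germ cells against transposons, 3 of 14 were higher in the members than in the Piwil1 gate in all libraries and 8 were lower. Mybl1, the A-MYB factor that drives pachytene piRNA loci, was at 98.5 ± 35.6 CPM in the members, 12.3 ± 3.34 in spermatogonia and 106 ± 22.5 in the Piwil1 gate and was below the Piwil1 gate in 4 of 6 libraries. Of the later pachytene genes outside the gate, 9 of 9 were lower than in the Piwil1 gate in all libraries, among them Tcfl5 at 163 ± 23.9 against 531 ± 75.6 CPM.

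Between the diets no gene passed the test in the early prophase members. UMIs were summed per library and compared with edgeR, a model fitted to all 10635 genes that passed its filter on low counts. The call rule was an adjusted p under 0.05 and 0 genes (0%) were called. Before adjustment 345 genes (3.24%) had a p under 0.05, and the smallest adjusted p was 0.971. DESeq2, run on 21261 genes without that filter, called 0 genes with 192 at an unadjusted p under 0.05. The median standard error of the log2 difference was 0.25, which limits how small a difference could be called. The libraries differed in how their deviations followed GC content: over 7284 genes the Spearman correlation was -0.554 and -0.376 in HFD replicates 2 and 3 and between 0.167 and 0.301 in the other 4 libraries. The p-values set the diet difference against the spread between libraries of the same labelled diet.

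The 6 genes with the smallest p were all lower in the libraries labelled HFD, with groups that did not overlap, as held for 462 of the 10635 genes in that direction (4.34%). Gm47283 (GRCm38 chrY:90784738-90816464), which has near copies on the sex chromosomes and is uncertain for that reason, was at 5.26, 24.4 and 23.9 CPM in HFD and 57.7, 41.2 and 68.4 CPM in LFD. Its log2 difference was -1.60 with a standard error of 0.37. Gm17359 (chr3:79336661-79464129) was at 32.7, 41.3 and 34.3 CPM in HFD and 61.0, 76.7 and 55.0 CPM in LFD. Slc41a3 (chr6:90604725-90646412), of a family of magnesium transporters, was at 6.43, 4.58 and 6.74 CPM and 15.7, 17.1 and 13.4 CPM. Erich2 (chr2:70508819-70540884) was at 67.8, 69.8 and 68.0 CPM and 108, 109 and 99.6 CPM, the narrowest spread of the 6. Arrdc5 (chr17:56294111-56300286), an arrestin family gene, was at 26.9, 36.2 and 30 CPM and 42.0, 61.5 and 65.4 CPM, and Ap2s1 (chr7:16738410-16749294), a subunit of the clathrin adaptor, at 91.1, 58.6 and 64.3 CPM and 115, 112 and 134 CPM. The log2 differences of the last 5 ran from -1.39 to -0.62, and by edgeR the adjusted p of all 6 was 0.971. The size of 3 of these differences depended on the processing: Arrdc5 ran from -1.81 to -0.37 around -0.81, Gm17359 from -1.49 to -0.61 around -0.83, and Gm47283 from -1.90 to -0.78.

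The meiotic lists leaned one way without a call. Of the 77 genes outside the gate 55 were higher in the libraries labelled HFD, and their median log2 difference was 0.22 beside -0.01 for all genes tested. Groups did not overlap for 7 of the 77, all higher in HFD, where 425 of all genes (4.0%) were higher and apart, and 887 (8.34%) were apart in either direction. The 7 were Dmrtc2, Syce2, Tex12, Hormad2, Mcmdc2, Terb2 and Hus1b. Tex12 was at 334, 311 and 326 CPM in HFD and 273, 240 and 250 CPM in LFD, and Syce2 at 525, 518 and 543 CPM and 432, 449 and 443 CPM. By list the median ran from 0.00 for strand exchange to 0.30 for the synaptonemal complex. With each library left out in turn these 2 medians lay between -0.03 and 0.14 and between 0.21 and 0.39. Without LFD replicate 3 the median of the 77 was 0.18 and 62 were higher, and by list it ran from 0.12 for telomere attachment (0.25 with all libraries) to 0.27 for initiation (0.18), with strand exchange at 0.14. After removal of library trends with GC content and length it was 0.13, and the part of GC content in this lean was not tested. The lists were chosen with earlier results of these data known.

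**Figure D4:**
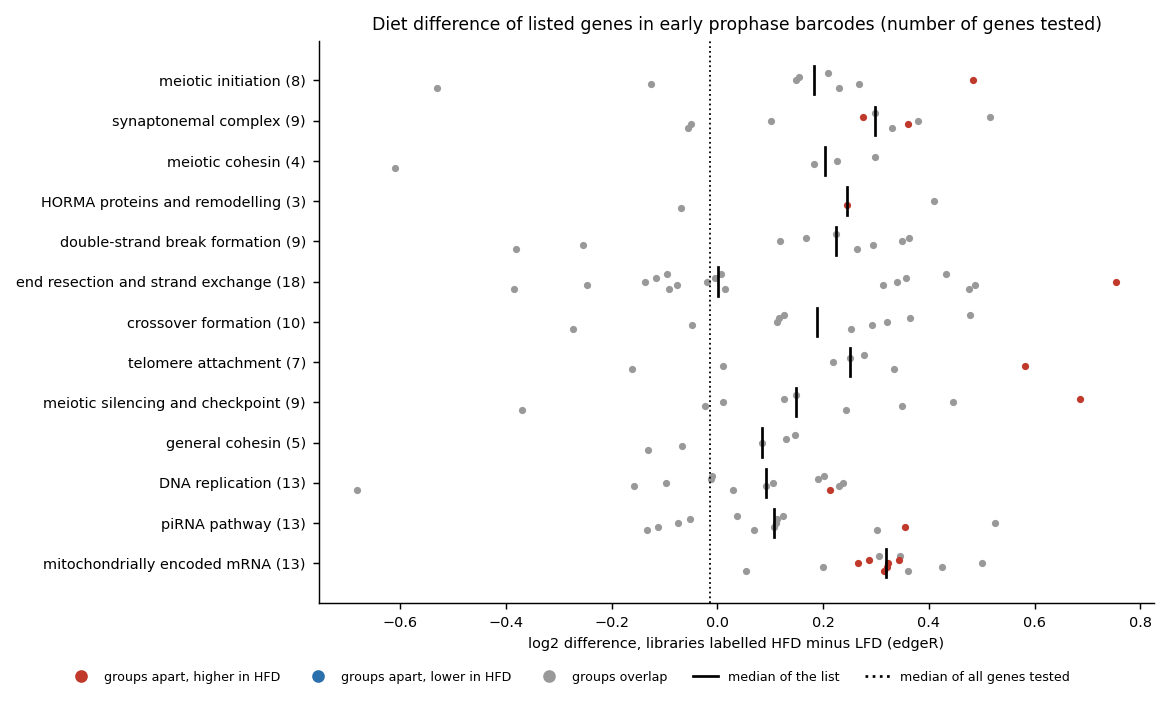
Log2 difference, HFD minus LFD as labelled (x axis, edgeR), of the listed genes tested in early prophase members, by list (y axis), with a bar at each list's median and a dotted line at the median of all genes tested. Red points are genes whose groups do not overlap and were higher in HFD. No point is blue in the lists drawn, and no gene passed the adjusted test. In the later pachytene list, which is not drawn, 1 gene was apart and lower in HFD.

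The mitochondrial share was the 1 of 5 single values whose groups did not overlap between the labelled diets. The 13 mitochondrially encoded mRNAs, which code for respiratory chain subunits, gave 5.64%, 7.10% and 6.63% of member UMIs in HFD and 5.55%, 4.76% and 5.44% in LFD. The means were 6.46% ± 0.743 and 5.25% ± 0.425 (SD, n = 3 each), a difference of 1.21 percentage points. The two-sided exact permutation p was 0.1, the smallest that 3 libraries against 3 allow. The difference was 0.0952 points between the replicate 1 libraries and a mean of 1.76 points between the others. All 13 mRNAs were higher in HFD, with groups apart for 6 (4.0% of all genes tested were higher and apart), and their median log2 difference was 0.32, which became 0.16 with GC and length trends taken out. The largest contributors were mt-Co3 at 11933, 15194 and 14608 CPM in HFD and 11700, 10123 and 11868 CPM in LFD, and mt-Co1 at 10301, 13272 and 12089 CPM and 10013, 8753 and 9979 CPM. In the spermatogonia gate the mitochondrial share was 6.76%, 8.31% and 6.35% in HFD and 6.90%, 5.46% and 6.47% in LFD, and in the Piwil1 gate 2.32%, 3.69% and 3.86% and 2.40%, 3.20% and 7.16%, with overlapping groups in both. In these sums more transcripts per cell and a change in the other RNA of the cell cannot be told apart.

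The gate took 1.98%, 2.13% and 2.44% of all barcodes in HFD and 2.82%, 1.54% and 1.39% in LFD. The exact 95% binomial intervals, which cover counting error only, ran from 1.72% to 2.28% in HFD replicate 1 and from 2.44% to 3.25% in LFD replicate 1. The difference of 0.268 points had an exact permutation p of 0.6, with LFD replicate 1 above and the other LFD libraries below all HFD libraries. The Stra8 share differed by -5.84 points (38.4% ± 7.61 against 44.2% ± 8.32, exact permutation p = 0.5, n = 3 each), the X share by 0.0310 points (exact permutation p = 1) and the median depth by 877 UMIs (exact permutation p = 0.4). In each of these the libraries of the diets overlapped. The Stra8 difference rested on single libraries: it was -1.07 points without LFD replicate 3, -1.98 without HFD replicate 2, -9.59 without HFD replicate 3, and -2.54 when members were not thinned. The depth difference was 66.7 UMIs without HFD replicate 2 and 1454 UMIs without HFD replicate 1.

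**Figure D5:**
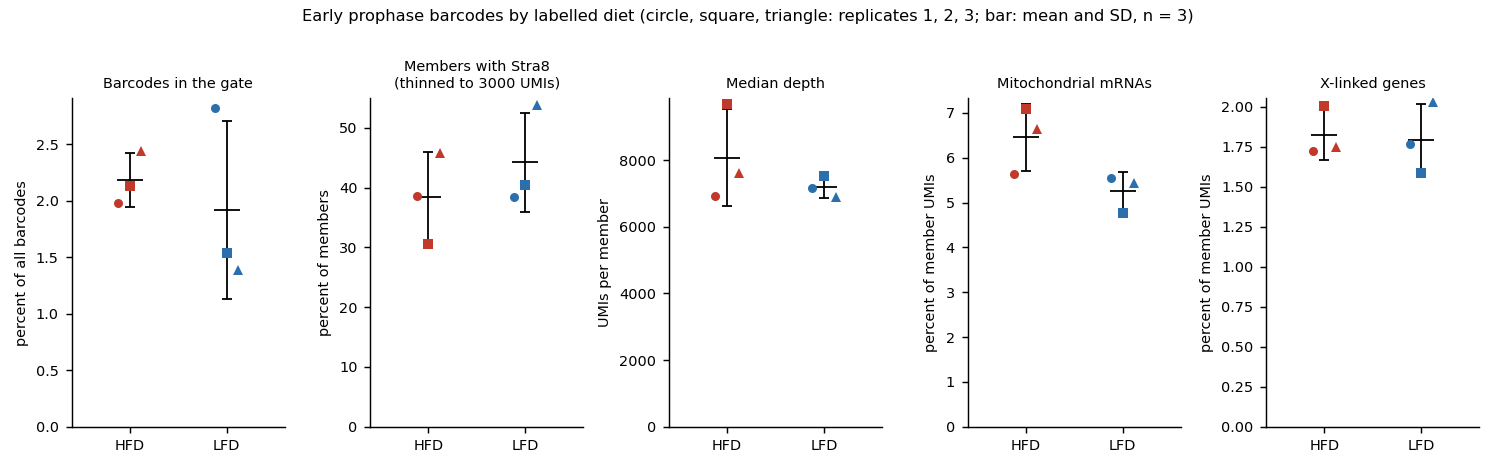
Values of the early prophase members by labelled diet (x axis): percent of barcodes in the gate, percent of members with Stra8, median UMIs, and percent of member UMIs from mitochondrial mRNAs and from X-linked genes (y axes). Points are libraries and bars the mean and SD (n = 3). The groups are apart only for the mitochondrial share, at 5.64% to 7.10% in HFD and 4.76% to 5.55% in LFD.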

How the data were processed

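UMI counts of testis cells were used from 6 libraries (3 per diet). Per the labels and file headers, the authors aligned reads to mm10 with Cell Ranger 6.0.1 and deposited raw UMI counts per gene and barcode, 32285 genes in all. The labels name the 3′ kit v2 and the study's methods v3.1. Reads of the 3′ kit come from transcript ends, so levels were compared within a gene. No deposited cell annotation was used, and no doublets were removed in the main result. Groups follow the GEO titles. The members and gene lists were chosen with earlier results of these data known.

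Counts of the members were summed per library and tested, HFD minus LFD, two-sided, by edgeR 4.0.16 (R 4.3.3; quasi-likelihood, TMM, default low-count filter, Benjamini-Hochberg adjustment). Single values were compared by exact permutation (scipy 1.17.1), and sums per gate were scaled to CPM (offset 5 CPM in log2 ratios between gates). The scripts were tested on simulated data. Alternatives were DESeq2 1.42.0, its size factors, no low-count filter, a replicate block, GC and length trends, each library left out, 4 stricter gates and removal of high Scrublet scores (scanpy 1.11.5, 0.8% per 1000 barcodes), and, after seeing the data, a term for the replicate 1 libraries, removal of HFD replicate 1 with the trends taken out, removal of members over 20000 UMIs, Stra8 classes without LFD replicate 3 and X-linked genes without Tsga8 or low in spermatids. Named genes were the gate and list genes, the 6 genes of smallest p between diets since none was called, the 20 with the largest excess over both other gates, and the paralog pairs. The genes named for the Stra8 classes beside these were chosen after their values were seen. Chromosomes, GC content and length came from GENCODE vM21 and promoters from RefSeq. Any 2 libraries differed by more than the counting noise of UMIs (chi-square per degree of freedom at least 2.32, the value between HFD replicate 1 and LFD replicate 1). This chi-square treats UMIs as independent, and the part of the sampling of cells was not tested. Some results are not reported here.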

Additional observations from a re-analysis of the deposited data

How the results depend on the processing

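No gene was called between the diets under 19 of 20 alternatives, and 161 to 1262 genes had a p under 0.05 before adjustment. The alternatives tested from 9250 to 21261 genes, so these numbers have unlike totals. The highest number came without HFD replicate 1 (626 with the trends on GC content and length also taken out). Without the low-count filter 7 genes were called. Cst9 and Ldhb were higher in HFD, with most UMIs in HFD replicate 3. Acta2, Myl9 and Cald1 were lower, with most UMIs in LFD replicate 3, and Hist1h2ap and Gm47283 were lower. Hist1h2ap and Gm47283 had also passed the filter, with an edgeR adjusted p of 0.971 in the main fit. Without the filter their edgeR adjusted p was 8.76e-06 and 2.15e-05. The groups of Hist1h2ap overlapped, at 153.7, 72.8 and 58.2 CPM in HFD and 87.3, 180.6 and 474.2 CPM in LFD. With high Scrublet scores left out the smallest adjusted p by edgeR was 0.0782 (0 called). The 6 genes of smallest p were lower in HFD in all 118 fits that tested them (2 did not test Slc41a3), at log2 differences of -1.90 to -0.37. They were picked from the same libraries and their groups did not overlap. Refits of these counts could therefore hardly reverse the sign, and its constancy adds no support. Arrdc5 was at -0.37 with at least 6 UMIs of the gate genes, and Arrdc5 and Gm17359 at -1.81 and -1.49 with high Scrublet scores left out. Gm47283 was at -0.78 without HFD replicate 1 and with the trends taken out. The deviations of same-numbered libraries from their diet means correlated at 0.089, 0.126 and -0.144. With means of 3 libraries, these values cannot show whether any libraries shared a batch. HFD replicate 1 and LFD replicate 1 were the most alike of all pairs, at a chi-square per degree of freedom of 2.32. The replicate block called 0 genes, with 315 at an unadjusted p under 0.05. For single values the exact sign-flip test of the replicate block cannot go below 0.25. The X share difference of 0.0310 points turned to -0.0418 with members over 20000 UMIs left out, and lay between -0.0736 and 0.149 with each library left out. The mitochondrial difference stayed between 0.888 and 1.61 points under all 14 alternatives. Its groups overlapped (exact permutation p = 0.2, n = 3 each) as a mean over barcodes and without members over 20000 UMIs, and with 1 library left out no p can fall under 0.2. The gate share difference fell to 0.00407 points without LFD replicate 3 and 0.0110 points with Piwil1 at 0 UMIs. The median log2 difference of the meiotic lists lay between 0.12 and 0.29 under all alternatives. The Stra8 share difference lay between -9.59 and -1.07 points with each library left out. With 3 libraries per diet and 80 members in LFD replicate 3, precision is limited.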
